A study of Rattus norvegicus with 10 samples.

Results

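The contractile genes of smooth muscle and of the glomerular mesangium were followed here across fetal rat kidneys: the actins Acta2 and Actg2, the actin-binding genes Tagln and Cnn1, the myosin genes Myh11 and Myl9, the tropomyosins Tpm1 and Tpm2, and the intermediate filament gene Des. Every probe set that GEO's platform annotation gives to exactly 1 of these 9 genes was taken, which made 9 of 10411 named genes and 14 of the 15923 probe sets on the array, 6 of them for Tpm1 and 1 for each of the others. The genes were chosen by their role in contraction together with the difference between the 2 groups of kidneys, which was already known: Tagln had been seen to lie lower and Des higher. Their differences between the groups are therefore a description and carry no test. Another 3 probe sets are annotated to both Acta2 and the cardiac actin gene Actc1 and were left out.

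The kidneys were dissected on day 22 of gestation, near birth, and each of 10 arrays held the RNA of 1 sample. The normal group had 5 samples (replicates 1 to 5), from fetuses whose mothers received a regular diet, with no implant named in the labels. The hyperinsulinemic group had 5 samples of growth-restricted fetuses (replicates 6 to 10), from Wistar females of 200 to 280 g on normal food that received under the skin a 2 mm piece of a slow-release insulin implant, 1 week before mating and again 1 week after it. Mothers were kept 4 to a cage in both groups; no label states the strain of the normal mothers, or the litter and sex of any fetus. The p-values below measure only the spread between these samples, part of which may be technical.

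Smooth muscle cells shorten when myosin pulls on actin filaments, after the myosin light chain has been phosphorylated by its kinase. Calponin, encoded by Cnn1, and tropomyosin lie along the actin filament, caldesmon with them, and desmin, encoded by Des, ties the contractile apparatus together mechanically. Serum response factor and its partners of the myocardin family switch on many of these genes by binding the CArG box, a short element rich in A and T between CC and GG. In the kidney such genes mark the muscle of arterioles, the renal pelvis and the ureter, while mesangial cells of the developing glomerulus carry Acta2 and, in the rat, Des. Whole-kidney RNA cannot tell fewer cells of a type from less RNA in each cell.

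The arrays were alike in scale, with median signals of 130.4 to 137. The nephron genes checked against the label were present, with the phosphate transporter gene Slc34a1 at 2600 ± 78.5 and 2682 ± 80.4 and the podocyte gene Nphs1 at 340.3 ± 17.0 and 352 ± 14.5 in the normal and hyperinsulinemic groups (signal, mean ± SD, n = 5 each). Alb, a liver gene that encodes albumin, differed between arrays. It ran from 42.9 to 842 in the normal group, highest in replicate 4. In the hyperinsulinemic group it ran from 84.9 to 1742, highest in replicate 6. Of 9 tested liver genes 8 lay higher in the hyperinsulinemic group, but Afp did not, at 886 ± 69.5 and 848 ± 132. Afp was 706.5 in hyperinsulinemic replicate 6, and the source of the Alb signal was not tested. Xist, transcribed from the inactive X chromosome, lay between 0.8 and 2 on normal arrays and between 42.4 and 70.5 on hyperinsulinemic arrays, so the treatment of the mothers and the sex of the fetuses sampled cannot be told apart here. Signals are MAS5 intensity values on a linear scale, and log2 differences are those of log2(signal + 16), hyperinsulinemic minus normal, with their standard error. A probe set was tested when it reached the 40th percentile of its array on at least 5 arrays, which 9601 did.

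The promoter of Acta2 is shown first, because Acta2 is the usual marker of contractile cells and, of the members searched, the one in which CArG-like sequences were found, and that of Des beside it, because Des is the member that lay higher. RefSeq's promoter table for GRCr8 held 6 of the 9 members (Des, Acta2, Actg2, Cnn1, Tpm1 and Tpm2), and the 250 bases before each annotated start were searched. Capitals mark a CArG box in which up to 1 of the 6 inner bases is neither A nor T; its frame reads the same on both strands.
Acta2, chr1:241172504-241172753, minus strand: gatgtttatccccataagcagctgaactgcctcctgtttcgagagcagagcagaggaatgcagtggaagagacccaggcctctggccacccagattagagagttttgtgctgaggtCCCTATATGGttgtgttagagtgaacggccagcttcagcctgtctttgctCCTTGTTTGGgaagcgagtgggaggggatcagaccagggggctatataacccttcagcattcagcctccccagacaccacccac
Des, chr9:84299376-84299625, plus strand: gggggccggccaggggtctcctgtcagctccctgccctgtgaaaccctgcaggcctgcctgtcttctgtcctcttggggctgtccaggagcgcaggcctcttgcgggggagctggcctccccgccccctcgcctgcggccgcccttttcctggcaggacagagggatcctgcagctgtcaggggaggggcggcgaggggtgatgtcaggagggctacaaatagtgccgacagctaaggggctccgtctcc

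In Acta2 the first bases of the 2 matches lay 134 and 84 bases before the start, each with 1 deviating inner base. A match with up to 1 deviating inner base was found in 8.08% of all 33469 promoters of that length. Counted among these, a CArG box with only A and T inside was found in 1.5%. Des, Actg2, Cnn1, Tpm1 and Tpm2 held neither form in this window, which says only that these letters are not in it.

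Acta2, the alpha actin of vascular smooth muscle, overlapped widely between the groups. Its signal was 604, 812, 919, 775 and 784 on normal arrays 1 to 5 and 777, 599, 650.3, 797 and 729 on hyperinsulinemic arrays 6 to 10. Normal replicate 1 lay nearly as low as the lowest hyperinsulinemic array, and the log2 difference was -0.13 ± 0.10. Leaving out normal replicate 1 made it -0.21, leaving out normal replicate 3 made it -0.06, and it became -0.07 when hyperinsulinemic replicate 7 was left out. The 3 probe sets annotated to both Acta2 and Actc1 were dim and differed in direction. Their means were 67.1, 65.6 and 46.1 in the normal group and 73.0, 64.6 and 16.9 in the hyperinsulinemic group. Actg2, the gamma actin of visceral smooth muscle, varied far more. It stood at 198, 231, 256, 116 and 81.8 on normal arrays and at 70.8, 101, 101, 165 and 149 on hyperinsulinemic arrays. The 3 highest arrays were normal ones, but normal replicates 4 and 5 lay among the hyperinsulinemic arrays, so the log2 difference of -0.48 ± 0.26 came with a wide error. It was -0.33 without normal replicate 3 and -0.70 without normal replicate 5. With the liver list as a covariate it was -0.10.

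Tagln encodes transgelin (SM22), an actin-binding protein that is abundant in smooth muscle. Its signal was 471, 527, 528, 471 and 367 on normal arrays and 416, 288, 288, 336 and 431 on hyperinsulinemic arrays. All 5 hyperinsulinemic arrays lay below the normal mean of 473 ± 65.3, with a hyperinsulinemic mean of 352 ± 68.4 (SD, n = 5 each). The groups overlapped through normal replicate 5, which lay below hyperinsulinemic replicates 6 and 10. The log2 difference was -0.42 ± 0.12, or 25.2% lower on that scale. A log2 difference of this size or larger, in either direction, was seen in 0.469% of the 9601 tested probe sets. Tagln was chosen with its difference known, so this share describes its size and is no test. Leaving out single arrays moved the log2 difference between -0.50 (without normal replicate 5) and -0.35 (without hyperinsulinemic replicate 7).

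Cnn1, which encodes the actin-bound inhibitor calponin, was dim and did not pass the filter. Its signal ran from 26.7 to 87.3 on normal arrays, with a mean of 61.4 ± 25.4, and from 40.1 to 67.8 on hyperinsulinemic arrays, with a mean of 50.6 ± 10.9 (SD, n = 5 each). Both the lowest and the highest array were normal ones, replicates 5 and 3.

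Myh11, the heavy chain of smooth muscle myosin and the member most restricted to that cell type, was spread widely within both groups. Its signal was 255, 406, 313, 187 and 156 on normal arrays and 164, 209, 196, 295.5 and 295 on hyperinsulinemic arrays. The normal arrays spanned the whole range of the hyperinsulinemic ones, and the log2 difference was -0.13 ± 0.22. Its sign turned to 0.04 without normal replicate 2 and to 0.18 with the liver list as a covariate, so no direction is given for Myh11. Myl9, the regulatory light chain, was bright and steadier. Its signal was 838, 767, 822, 747 and 662 on normal arrays and 686, 620.2, 688, 890.5 and 740.3 on hyperinsulinemic arrays. Hyperinsulinemic replicates 7 and 9 were the lowest and the highest of all 10 arrays, and the log2 difference was -0.09 ± 0.09. Single arrays moved it widely: leaving out hyperinsulinemic replicate 7 gave -0.03 and leaving out replicate 9 of the same group gave -0.16, while normal replicates 1 and 5, each left out in turn, gave -0.05 and -0.14. With the liver list as a covariate it was -0.05.

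Tpm2, the beta tropomyosin, lay lower in the hyperinsulinemic group. Its signal was 412, 549.7, 573, 406 and 434 on normal arrays and 449, 306, 315, 397 and 450.3 on hyperinsulinemic arrays. Normal replicates 2 and 3 were above all others and hyperinsulinemic replicates 7 and 8 below all others, while the remaining 6 arrays overlapped. The log2 difference was -0.30 ± 0.13, and it stayed between -0.36 and -0.23 when single arrays were left out.

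Tpm1, the alpha tropomyosin, makes several isoforms by splicing, and the file does not say which isoform each of its 6 probe sets reads. The brightest gave 1583, 1550.1, 1603, 1415 and 1558 on normal arrays and 1377, 1456, 1551, 1389.9 and 1384 on hyperinsulinemic arrays. It had the narrowest spread of the members, and 4 of 5 hyperinsulinemic arrays lay below the normal mean, for a log2 difference of -0.11 ± 0.05, or -0.07 with the liver list as a covariate. The other 3 tested Tpm1 probe sets differed by -0.08 ± 0.08, -0.06 ± 0.18 and -0.18 ± 0.13, and single arrays moved each of them by over 1.5 times. The first was -0.15 without hyperinsulinemic replicate 6, -0.04 without hyperinsulinemic replicate 9, -0.05 without normal replicate 2 and -0.17 with the liver list as a covariate. The third was -0.08 without normal replicate 3, -0.27 without normal replicate 4 and -0.02 with the liver list as a covariate. The second ran from 97.4 to 237 on hyperinsulinemic arrays and turned to 0.08 without hyperinsulinemic replicate 10 and to 0.07 with array weights, so no direction is given for it. Deviations of these probe sets from their group means were weakly related for most pairs, with r from -0.276 to 0.701 over 6 pairs and 10 arrays. The last 2 Tpm1 probe sets did not pass the filter, with means of 29.4 and 8.54 in the normal group.

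Des encodes desmin, the intermediate filament protein of muscle cells, which mesangial cells of the rat also make. Its signal was 127, 129, 153, 125 and 142 on normal arrays and 139.9, 163, 177, 199.9 and 186 on hyperinsulinemic arrays. All 5 hyperinsulinemic arrays lay above the normal mean of 135 ± 11.9, with a hyperinsulinemic mean of 173 ± 22.8 (SD, n = 5 each). The groups overlapped because hyperinsulinemic replicate 6 lay below normal replicates 3 and 5. The log2 difference was 0.32 ± 0.09, a size reached in either direction by 1.07% of all tested probe sets. Des too was chosen with its difference known, so this share is no test. The log2 difference of Des was 0.27 without hyperinsulinemic replicate 9, 0.38 without replicate 6 and 0.45 with the liver list as a covariate.

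**Figure D1:**
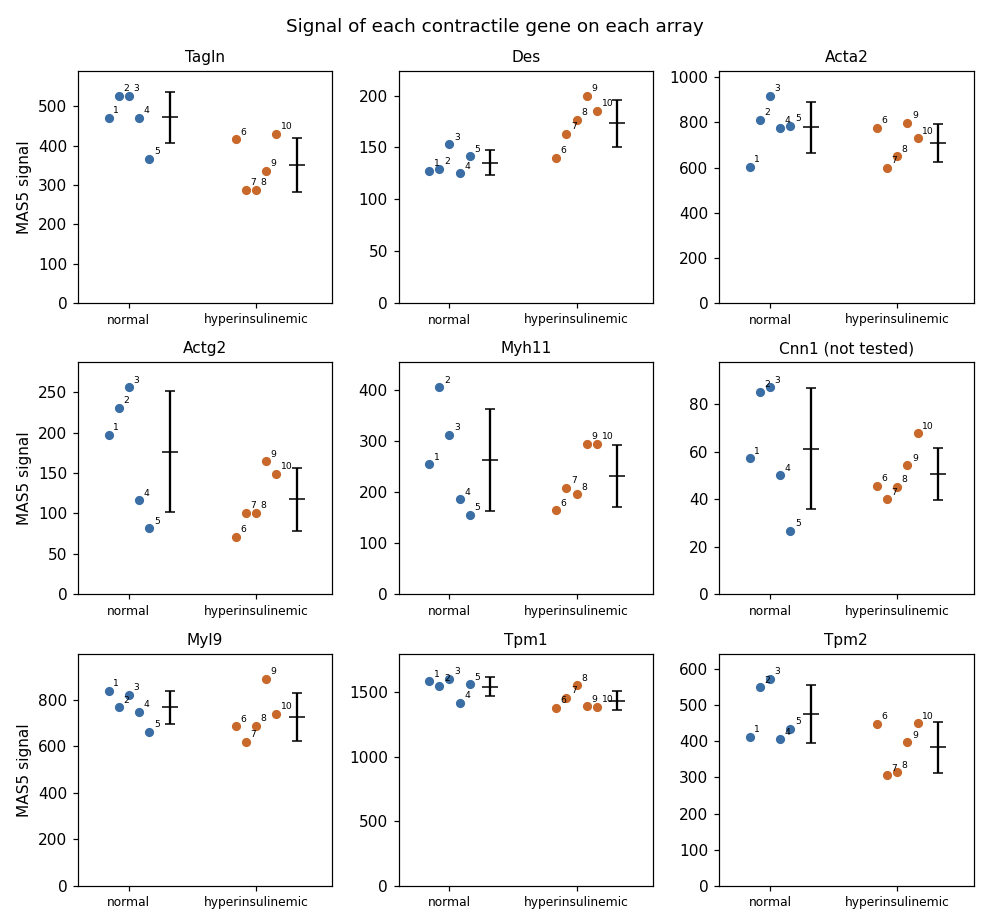
MAS5 signal (linear, vertical axis from 0) of the 9 contractile genes, brightest probe set of each, on the 5 normal (blue) and 5 hyperinsulinemic (orange) arrays; the small digits are replicate numbers, and the bars show the mean ± SD. The groups overlap for every gene, and hyperinsulinemic arrays sit low for Tagln and Tpm2 and high for Des.

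Desmin is shared with striated muscle, so the genes of skeletal and heart muscle were set beside it. Of 35 such genes 33 were on the array and 4 passed the filter, and 25 of the 33 had a mean signal under 50 over the 10 arrays. Their summed signal ran from 1963 to 2384 in the normal group and from 1810 to 2633 in the hyperinsulinemic group. It was highest in hyperinsulinemic replicate 9. The skeletal actin gene Acta1 lay between 2.1 and 41.5 and the muscle regulator Myod1 between 1.3 and 11.5 over all arrays. The sum took the brightest probe set of each gene. The brightest of 4 tested probe sets annotated to Myh1, a fast fibre myosin, made up much of it, at 1022 ± 104 and 973 ± 208 (SD, n = 5 each). The probe sets of the sarcomeric myosin genes Myh2, Myh4 and Myh8 averaged 14, 3.96 and 6 over the 10 arrays. Whether the brightest Myh1 probe set reads Myh1 was not tested. Without it the sum over the other 32 genes ran from 1004 to 1362 in the normal group and from 1051 to 1408 in the hyperinsulinemic group, again highest in hyperinsulinemic replicate 9. Of the 4 tested genes Ldb3 differed by -0.21 ± 0.19, Tnnc1 by -0.13 ± 0.14, the brightest probe set annotated to Myh1 by -0.09 ± 0.12 and Tnni1 by 0.00 ± 0.11 (log2). The part of striated muscle in the difference of Des was not tested.

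Over the list, 11 of the 14 probe sets and 8 of the 9 genes passed the filter. In limma's test with Benjamini-Hochberg adjustment at 0.05, 0 of the 11 passed, against 0.0104% of all tested probe sets. The groups did not overlap for 0 of the 11, against 1.04% of all tested probe sets. The log2 difference was below 0 for 10 of the 11, against 49.1% of all, and 7 of the 8 tested genes lay lower by their brightest probe set. Both counts include Myh11, and the first also a Tpm1 probe set, for which no direction is given above. The median over the 11 was -0.13, beside 0.00 over all 9601, and 4 of the 11 belong to Tpm1. Since the members were chosen with this contrast known, nothing further is read from these counts. Without the 2 arrays with the most Alb the median was -0.16, and the values were -0.48 for Tagln, 0.36 for Des, -0.41 for Tpm2 and -0.45 for Actg2. Without normal replicate 3, the array with the highest signal for 6 of the 9 genes, the median was -0.06.

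**Figure D2:**
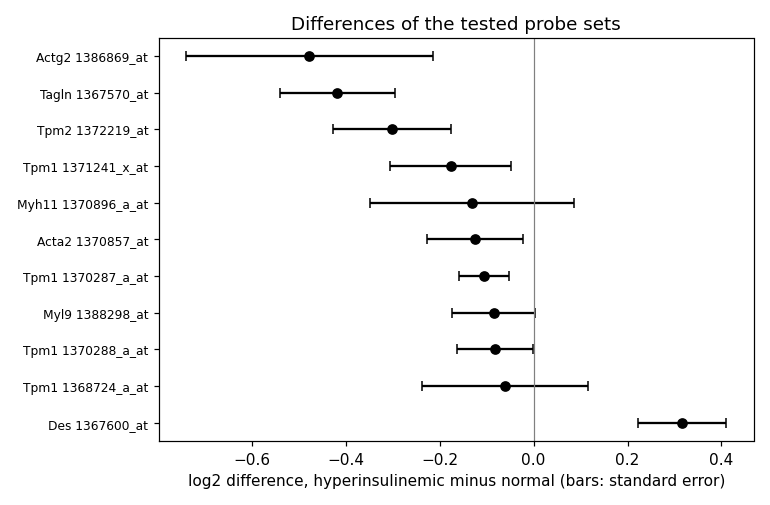
Log2 difference, hyperinsulinemic minus normal (horizontal axis), of the 11 tested probe sets of the contractile genes, with bars of 1 standard error. Des is the only one above 0, at 0.32, and Actg2 and Tagln lie lowest, at -0.48 and -0.42.

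How far the members varied together within a group is a measure that the difference between the groups does not enter. For each gene the deviation of every array from its group mean was taken, and the 28 pairs of the 8 tested genes were compared over the 10 arrays. Actg2 and Myh11 varied together closely, with Pearson r = 0.944 (exact two-sided permutation within groups, p = 0.000417, adjusted p = 0.0117 over 28 pairs) and Spearman rho = 0.903 (exact permutation p = 0.00278, adjusted p = 0.0778). It was the 1 pair of 28 that passed by r, and 0 passed by rho. Without the 2 arrays farthest from the median for Actg2, r was 0.903. Both genes were above their group mean in normal replicates 1, 2 and 3 and hyperinsulinemic replicates 9 and 10, and below it in normal replicates 4 and 5 and hyperinsulinemic replicates 6, 7 and 8. When single arrays were left out r stayed between 0.922 and 0.984, but the adjusted exact permutation p was 0.0583 without normal replicate 1, 4 or 5 or hyperinsulinemic replicate 6 or 10, and 0.0778 without hyperinsulinemic replicate 9. Without the 2 arrays with the most Alb, normal replicate 4 and hyperinsulinemic replicate 6, r was 0.925.

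No other pair passed after adjustment. Tpm2, the beta tropomyosin, had r = 0.823 with Tagln (exact permutation p = 0.0121, rho = 0.778 with p = 0.0278) and r = 0.774 with Acta2 (exact permutation p = 0.0112, rho = 0.818 with p = 0.012) (adjusted p = 0.0846 for both by r, and 0.194 and 0.112 by rho). Without the 2 arrays farthest from the median these were 0.865 and 0.759. Actg2 and Myl9 gave r = 0.745 (exact permutation p = 0.0106, adjusted p = 0.0846; rho = 0.794, p = 0.00826, adjusted p = 0.112; r = 0.663 without the 2 farthest arrays). Tagln and Des, which lay on opposite sides between the groups, had r = -0.146 within them (exact permutation p = 0.743, rho = -0.079 with p = 0.847, adjusted p = 0.782 and 0.878; r = -0.251 without the 2 farthest arrays). The lowest r of the 28 pairs was -0.421, for Tagln and Tpm1 (exact permutation p = 0.257, rho = -0.365 with p = 0.341, adjusted p = 0.48 and 0.491; r = -0.387 without the 2 farthest arrays). The median r was 0.417 over the 28 pairs, 23 of which were above 0. These values were not tested against those of pairs of other genes. For Tagln and Des alone, r with other members is ranked below among the r of other genes, as a description.

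When Cnn1 was included in spite of its low signal, 4 of 36 pairs passed by r: Actg2 with Myh11, and Cnn1 with Actg2 (r = 0.883), with Myh11 (r = 0.878) and with Tagln (r = 0.761). Their adjusted exact permutation p-values were 0.0262, 0.0425 and 0.0417 for the 3 pairs with Cnn1. By rho these 3 had adjusted exact permutation p-values of 0.0671, 0.0675 and 0.0671. The within-group SD of log2 signal was 0.539 for Actg2 and 0.444 for Myh11, above that of 99.8% and 99.6% of all tested probe sets, whose median was 0.129. It was 0.238 for Tagln, 0.245 for Tpm2 and 0.149 for Des, and 0.0713 for the brightest Tpm1 probe set.

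**Figure D3:**
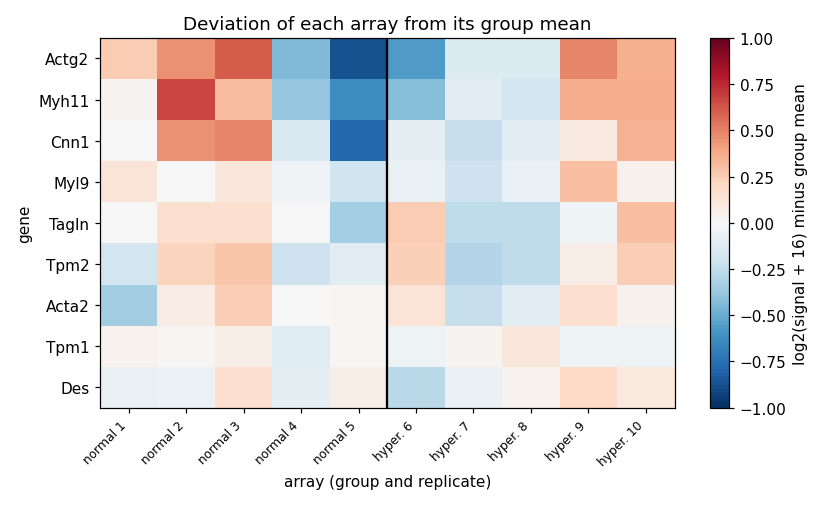
Deviation of each array (columns, normal replicates left and hyperinsulinemic right of the line) from its group mean, in log2(signal + 16), for the 9 contractile genes (rows); red is above and blue below the group mean. Actg2, Myh11 and Cnn1 all lie above the group mean in normal replicates 2 and 3 and hyperinsulinemic replicates 9 and 10, and below it in normal replicates 4 and 5 and hyperinsulinemic replicates 6, 7 and 8.

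Outside the list, the genes most like Tagln in their deviations over the 10 arrays, among 7259 genes, were Eif3i (r = 0.956), a subunit of a translation initiation factor, Slc35a1 (0.941), a sialic acid transporter of the Golgi, Nsa2 (0.935), which acts in ribosome assembly, Prr13 (0.925) and Cd99 (0.92), a surface glycoprotein. Those most like Des were the kinase gene Cdk18 (r = 0.939), the small GTPase gene Rab20 (0.939), the fucose transporter gene Slc35c1 (0.931), Pdap1 (0.921) and the chaperone gene Dnajc22 (0.908). With 10 arrays and so many genes such values are a description only. None of these 10 genes is a contractile protein. Of the members, Tpm2 was most like Tagln, above 99.5% of the other genes, and Tpm1 least, at r = -0.421 and above 16.8% of them. Actg2 was most like Des, above 90.0% of the other genes, and Tagln least, above 37.2%. The log2 difference between the groups was 0.02 ± 0.06 for Eif3i and 0.03 ± 0.09 for Cdk18.

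The genes that work with the contractile proteins were followed from lists of their roles. Of all 9601 tested probe sets 515 had an unadjusted p under 0.05 in limma, and 49.1% lay lower. Of the other thin filament and cytoskeleton genes 19 were tested, with 0 passing in limma (adjusted p under 0.05), 2 at an unadjusted p under 0.05 (against 5.36% of all tested probe sets), 12 lower, 7 higher and a median log2 difference of -0.01. Pdlim3, a partner of alpha actinin, stood at 210.3 ± 19.7 and 179.7 ± 12.7, a log2 difference of -0.21 ± 0.08 (limma, adjusted p = 0.907). The calponin Cnn2, found in many cell types, differed by -0.15 ± 0.07 (limma, adjusted p = 0.918), and the LIM-domain gene Fhl2 by -0.42 ± 0.20 (limma, adjusted p = 0.931). Fhl2 was scattered, from 336 to 927 in the hyperinsulinemic group and from 669 to 1004 in the normal group.

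Of the genes of myosin regulation 15 were tested, 0 passed in limma (1 at an unadjusted p under 0.05, a share near the 5.36% of all tested probe sets), 8 lay lower and 7 higher, with a median of -0.02. The myosin light chain kinase gene Mylk, chosen after its values were seen, was steady at 1298 ± 109 and 1265 ± 76.8 (SD, n = 5 each), a log2 difference of -0.04 ± 0.06. The kinase gene Dapk3 differed by 0.16 ± 0.08, the myosin phosphatase subunit gene Ppp1r12c by 0.16 ± 0.10 and the phosphatase inhibitor gene Ppp1r14a by -0.13 ± 0.10 (limma, adjusted p = 0.918, 0.969 and 0.973).

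Of the transcriptional regulators 12 were tested and 0 passed in limma (0 at an unadjusted p under 0.05, against 5.36% of all tested probe sets). Of the 12, 8 lay lower and 4 higher, with a median of -0.01. Srf, which encodes serum response factor and was also chosen after its values were seen, stood at 437 ± 5.48 and 444 ± 32.4 (SD, n = 5 each), a log2 difference of 0.02 ± 0.06. Its partner Mrtfa differed by -0.13 ± 0.09, the growth factor gene Tgfb1 by 0.17 ± 0.16 and Gata6 by -0.07 ± 0.09 (limma, adjusted p = 0.973 for each). Of the calcium and membrane genes 11 were tested and 0 passed in limma (0 at an unadjusted p under 0.05, against 5.36% of all tested probe sets). Of the 11, 6 lay lower and 5 higher, with a median of -0.05. Cav1, the coat protein of caveolae, differed by -0.17 ± 0.11, the calcium release channel gene Itpr1 by -0.10 ± 0.08 and the calcium pump gene Atp2a2 by 0.07 ± 0.05 (limma, adjusted p = 0.972, 0.973 and 0.973).

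Of the mesangial and pericyte genes 10 were tested and 0 passed in limma (0 at an unadjusted p under 0.05, against 5.36% of all tested probe sets). Of the 10, 9 lay lower and 1 higher, with a median of -0.06, where 49.1% of all tested probe sets lay lower. The potassium channel gene Kcnj8 differed by -0.18 ± 0.09, the platelet-derived growth factor receptor genes Pdgfrb by -0.13 ± 0.08 and Pdgfra by -0.15 ± 0.10 (limma, adjusted p = 0.934, 0.942 and 0.972). Pdgfrb, the growth factor receptor of mesangial cells, stood at 178 ± 11.8 and 161 ± 13.0 in the normal and hyperinsulinemic groups (SD, n = 5 each). Its relation to Des was not tested. Itga8 and Gata3, which also mark mesangial cells, did not pass the filter, so the mesangial part of the label rests on few genes.

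Lists of other cell types that a dissected kidney can hold were set beside the contractile genes. Like the lists above, these were chosen with earlier results of these data known, so their counts are a description and no test. Of 17 tested genes of the interstitial stroma 15 lay lower, against 49.1% of all tested probe sets, with a median of -0.14. They were led by Lum (-0.63 ± 0.11), Postn (-0.43 ± 0.09) and Col14a1 (-0.27 ± 0.08) (limma, adjusted p = 0.132, 0.264 and 0.676). Of the 17, 0 passed, and 6 had an unadjusted p under 0.05 in limma, against 5.36% of all tested probe sets. Of 9 tested liver genes 8 lay higher, with a median of 0.85. Hp, Fgg and Gc led them, with log2 differences of 1.43, 1.21 and 0.99 (limma, adjusted p = 0.676, 0.870 and 0.883). All of these were highest in hyperinsulinemic replicate 6, at 1180, 611 and 582. Of the 9, 0 passed, and 5 had an unadjusted p under 0.05 in limma. The median was 0.00 over 8 endothelial genes, with Flt1 at -0.13 ± 0.09, Pecam1 at -0.08 ± 0.11 and Cldn5 at 0.04 ± 0.06, and 0.01 over 6 podocyte genes, with Wt1 at 0.11 ± 0.06, Actn4 at -0.08 ± 0.07 and Nphs1 at 0.05 ± 0.06. Over 10 genes of nephron and collecting duct it was -0.03, with Aqp2 at 0.45 ± 0.11, Slc5a2 at -0.29 ± 0.10 and Calb1 at -0.33 ± 0.20, and 2 of the 10 had an unadjusted p under 0.05. None of these passed, and their part in the differences of Tagln, Tpm2 and Des was not tested.

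**Figure D4:**
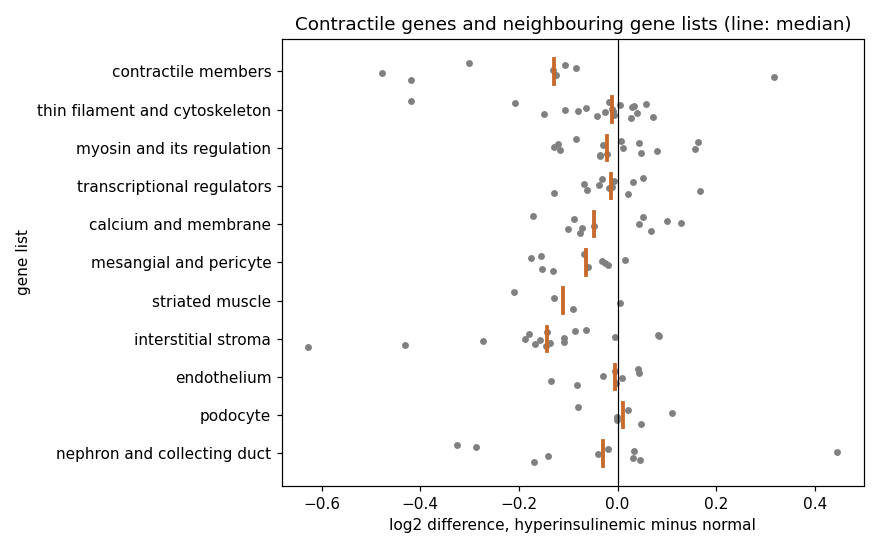
Log2 difference, hyperinsulinemic minus normal (horizontal axis), of each tested gene (grey points, brightest probe set) in the contractile list and in neighbouring lists (rows), with the list median as an orange line; the liver list, with a median of 0.85, is left out for scale. The contractile median is -0.13, that of stroma -0.14, and those of the remaining lists lie between -0.11 and 0.01.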

How the data were processed

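The authors deposited linear intensity values, 1 MAS5 signal per probe set and array; the submitters' processing notes name MAS5, of which the labels state neither version nor settings. Genes were named by GEO's platform annotation and updated by Entrez identifier to RefSeq's table for GRCr8. The 57 control probe sets were left out, the filter given with the results was applied, and log2(signal + 16) was fitted by limma 3.58.1 under R 4.3.3 (lmFit, then eBayes with a trend on intensity); two-sided p-values were adjusted by Benjamini-Hochberg over 9601 probe sets. Lists used the brightest tested probe set of a gene. Named by rule were all members, the 3 genes of each list with the smallest p, and the 5 genes most like Tagln and Des. Alb and Xist were named as facts about the arrays. Outside this rule Slc34a1, Afp, Tnni1, Mylk and Srf were named, with the untested Acta1, Myod1, Myh2, Myh4, Myh8, Itga8 and Gata3. Members, lists and tests were chosen with earlier results of these data known. Scripts were tested on simulated data. The number of arrays limits the precision. Alternatives were other pseudocounts, filters, normalizations and variance models, array weights, a liver covariate and leaving out each array; leaving out both arrays richest in Alb, and taking Cnn1 into the pairs, were added after the data were seen. Figures used Python 3.11.15 and matplotlib 3.10.9.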

Additional observations from a re-analysis of the deposited data

Results flagged for a closer look

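The brightest Tpm1 probe set stood at 1415 in normal replicate 4, apart from the other normal arrays at 1550.1 to 1603; on the scale of log2(signal + 16) the gap was 0.729 of the group's range. It was the 1 sample set apart in 28 groups of 5 arrays examined, where chance sets apart about 1 in 20. Xist, which was not among the tested probe sets, averaged 56.9 on hyperinsulinemic arrays against at most 2 on any normal array.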

How the results depend on the processing

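Of all tested probe sets 1 passed; the count was 5 without a filter, 2 with arrays shifted to a common median, 4 with array weights, 0 without the intensity trend, with the liver list as a covariate or without the 2 arrays with the most Alb, and 0 to 4 when single arrays were left out. The median over the contractile probe sets stayed between -0.17 and -0.06 under every alternative run. Tagln, Tpm2, Acta2, Actg2, Myl9, Des and 3 of 4 Tpm1 probe sets kept their sign in every alternative that gave them a value (with the 60th percentile filter 7 of the 11 probe sets were tested, without Actg2, Des and 2 of Tpm1); Myh11 and the other Tpm1 probe set did not. The number of pairs that passed was 1 with all arrays, 4 with Cnn1 included and 0 to 1 when single arrays were left out. When all tested probe sets of a gene were averaged in place of taking the brightest, list medians kept their sign, from -0.14 for stroma and striated muscle to 0.85 for liver. No paired analysis was run, because the labels name no pairing between the samples of the 2 groups. Genes near background, such as Cnn1, are limited by their signal.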
